A study of Mus musculus with 8 samples.

Results

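The transcripts of 33 hepatic P450 and conjugation enzymes were followed in label-retaining and non-label-retaining EpCAM-positive liver cells. The genes were taken by name from a fixed list and matched by symbol and Ensembl identifier to the 46603 rows of the count table. All 33 were found, and 32 of them passed the filter on low counts and were tested, while Cyp4a14 had too few reads. The 8 libraries came from 4 mice, named JV602, JV621, JV624 and JV6314, with 1 LLRC (EGFP+) and 1 non-LRC (EGFP−) library from each. All mice carried 1 copy of R26-rtTA, a transactivator in the ubiquitously active Rosa26 locus, and 1 copy of an H2B-EGFP cassette under a tetracycline response element, on a mixed C57BL/6 and CBA background. The study used male and female mice, and the labels do not give the sex of these 4. All received doxycycline through the nursing mother from postnatal day 0 to 5 and were sorted at 8 weeks of age, so that the groups shared every allele and treatment and differed in the EGFP signal kept in the nucleus. Hepatocytes were largely removed at low centrifugal speed and CD45+ cells with beads before EpCAM+CD45− cells were sorted. According to the study's description, blood cells of such mice can express the transgene without doxycycline.

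Cytochromes P450 are heme enzymes of the endoplasmic reticulum or mitochondria that insert an oxygen atom into drugs, fatty acids, steroids and bile acid precursors. The conjugating enzymes then attach glucuronic acid, sulfate or glutathione to such products, and carboxylesterases and flavin monooxygenases process further substrates. Most of these genes are read at high levels in mature hepatocytes and at low levels in the epithelium of the bile ducts, although some, such as the pi-class glutathione transferase Gstp1, are well known in duct cells. Bile acid synthesis, in which Cyp7a1 is the rate-limiting enzyme of the classical route, is a task of hepatocytes.

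LLRC libraries held 7860021 to 9851819 counts in all and non-LRC libraries 4670132 to 8056103. Wherever 4 values of a group are listed, they stand in the order JV602, JV621, JV624 and JV6314. CPM is the count of a gene divided by the library total, scaled by edgeR's TMM factor and expressed per 1000000, and a floor of 3 counts was between 0.291 and 0.626 CPM. The non-LRC library of JV621 stood apart, with 14234 genes read against 16042 to 20430 in the others, and with correlations of 0.677 to 0.758 to the other libraries across genes. Of the sort markers, Epcam was at 432 to 766 CPM in all 8 libraries. Ptprc, which encodes CD45, was at 0.485, 4.02, 2.06 and 6.55 CPM in LLRCs, compared with 0, 0, 0 and 1.38 CPM in non-LRC cells, and was the higher in LLRCs in each mouse (log2 fold 3.27, adjusted p = 0.957 from edgeR and 0.877 with the mouse as a block). The part of such cells in the members' values was not tested. Alb, the defining transcript of hepatocytes, was nevertheless read at 2091 to 2542 CPM in LLRC and 1506 to 2786 CPM in non-LRC libraries. With a log2 fold of 0.01, Alb was not typical of the 25 hepatocyte markers listed. Of these, 20 had a log2 fold below 0, with a median of -1.52. In bulk libraries like these, fewer cells of a type and less RNA per cell cannot be told apart.

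The members differed in how their levels were spread over the libraries (plot of levels by library). Some, among them Gsta3, Sult1a1, Ces1c, Ugt2b34 and Cyp4v3, were read in all 8 libraries at no less than 46.4 CPM. Others, among them Cyp2c68, Cyp2d26, Cyp8b1 and Ugt2b1, were high in the non-LRC libraries of JV624 and JV6314 and low in the other 6, and some followed neither course, such as Cyp2j5, which was highest in the non-LRC library of JV621. The log2 fold, LLRC over non-LRC, was below 0 for 27 of the 32 members tested and above 0 for 5, where 51.1% of the 13605 genes tested were below 0. The median log2 fold was -1.70 over the members and -0.01 over all genes tested in this fit without the mouse. The fold was below -1 for 21 members and below -2 for 13. With the mouse as a block in edgeR, the medians were -0.55 over the members and 0.14 over all genes. The coefficient of variation was larger among non-LRC than among LLRC libraries for 28 of the 32 members (87.5%), as it was for 82.5% of all genes tested. After Benjamini-Hochberg adjustment of edgeR's quasi-likelihood test 0 of the 32 members had an adjusted p below 0.05 (background 0% of all genes tested, the smallest adjusted p being 0.0809).

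**Figure D1:**
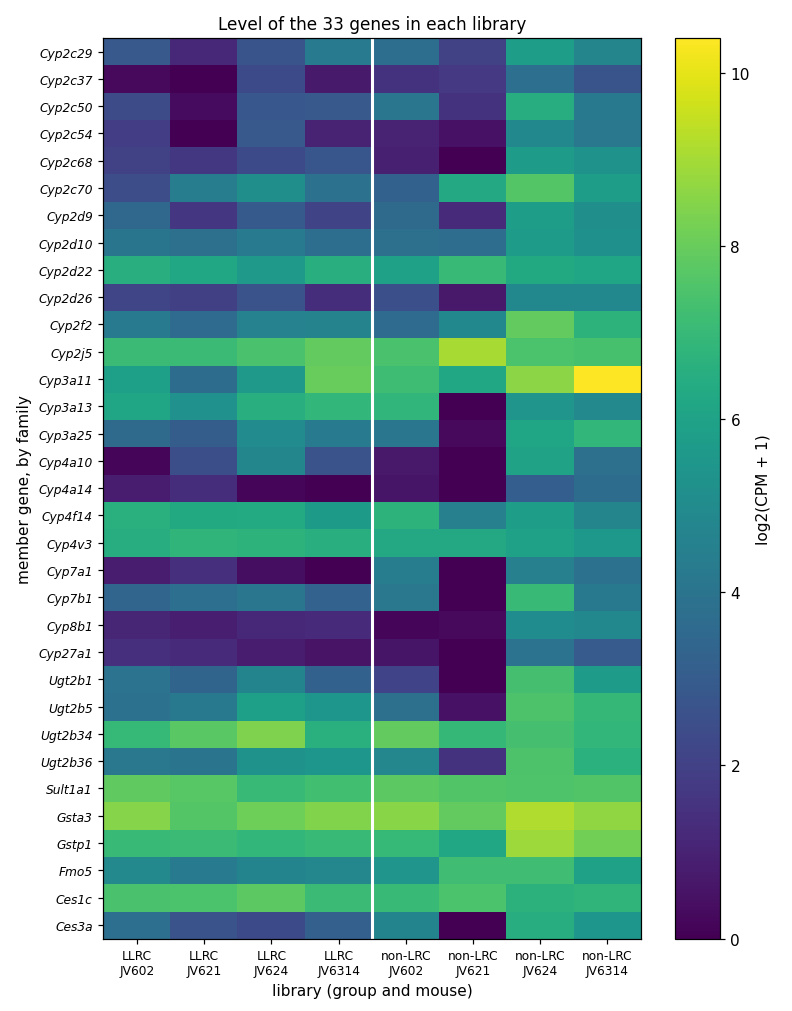
Level of each of the 33 genes (rows, by family) in the 8 libraries (columns, LLRC left and non-LRC right of the white line), as log2(CPM + 1) in colour. Rows such as Gsta3, Sult1a1 and Ces1c are bright in all columns, while Cyp8b1, Cyp2c68 and Ugt2b1 are bright in the non-LRC libraries of JV624 and JV6314.

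At an unadjusted p below 0.05 in the same edgeR test, 7 members (21.9%) were lower in LLRCs against a background of 3.56% of all genes tested. These were Fmo5, Cyp7a1, Cyp2f2, Cyp8b1, Cyp2c70, Cyp2c50 and Cyp2d9. With the mouse as a block, 5 members (15.6%) were lower at that level against 2.46% of all genes, namely Fmo5, Cyp2c70, Cyp2c50, Cyp3a11 and Cyp2c37, so that Cyp7a1, Cyp2f2, Cyp8b1 and Cyp2d9 missed it. Cyp4v3 was the 1 member higher in LLRCs at that level without the block, against a background of 1.6%. Within mice, the LLRC library was lower in all 4 mice for 7 members (21.9%), namely Cyp2c29, Cyp2c37, Cyp2c50, Cyp2c70, Cyp3a11, Gsta3 and Fmo5, against 5.53% of genes tested, and higher in all 4 mice for Cyp4v3 (background 7.74%). The number lower at an unadjusted p below 0.05 became 20 (60.6%, against 5.38% of all genes then tested) without the non-LRC library of JV621, 11 (33.3% against 4.93%) without that of JV602 and 2 (6.25% against 3.14%) without that of JV624. Without the non-LRC library of JV624, the log2 folds of Cyp2c50, Cyp2c70, Cyp2f2, Cyp27a1 and Gstp1 were -1.46, -1.37, -1.31, -1.16 and -0.35, against -2.85, -2.21, -2.29, -2.31 and -0.90 with all libraries. The number lower became 3 (9.09% against 2.76%) or 2 (6.25% against 2.5%) without the LLRC library of JV602 or JV621. The number higher became 0 without the LLRC library of any mouse or the non-LRC library of JV624 or JV6314. DESeq2's Wald test called 1 member lower at an adjusted p below 0.05, Fmo5 (background 1.17%), and so did edgeR's exact test (background 0.904%). DESeq2 with the mouse as a block called 4 members lower, Cyp3a11, Cyp2c70, Cyp2c50 and Fmo5 (background 1.43%), whereas edgeR's quasi-likelihood test with the same block called 0.

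**Figure D2:**
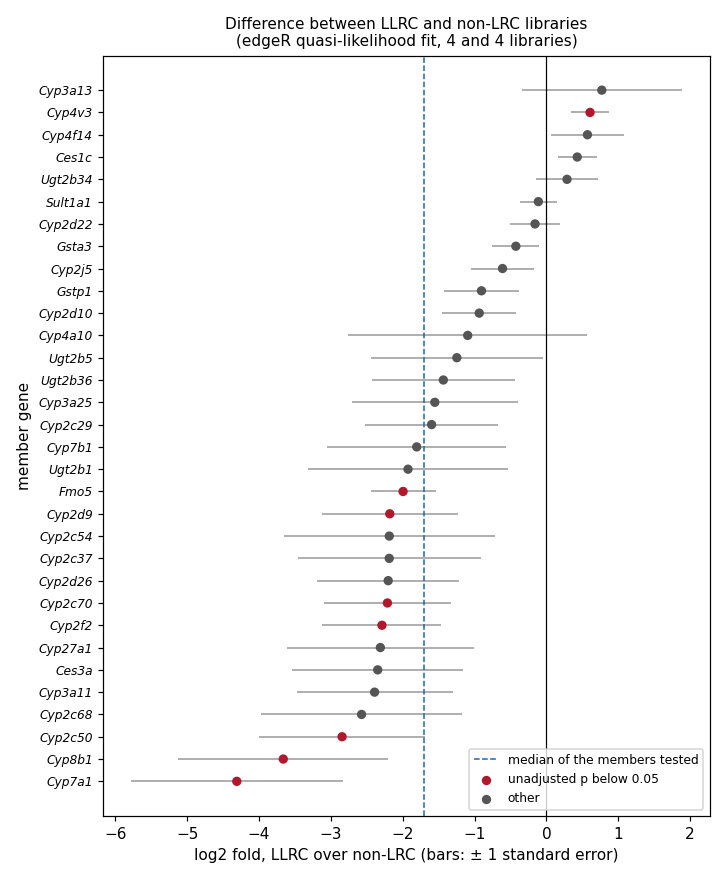
Log2 fold, LLRC over non-LRC, of the 32 members tested (points, with bars of 1 standard error, from 4 and 4 libraries). The 27 members left of the line at 0 include Cyp7a1 at -4.31, and the 5 right of it include Cyp4v3 at 0.61, with the dashed line at the median of -1.70.

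The 250 bases before the RefSeq start (GRCm38.p6) were given for 26 of the 33 genes, some with more than 1 window, and were searched on both strands for the letters of a liver factor motif. CAAAGTCCA, the HNF4 motif, was searched with at most 1 mismatch and was found for 9 of the 26 genes, where 7.05% of all 32851 such windows hold it. These were Cyp2c29, Cyp2c37, Cyp2c50, Cyp2c68, Cyp2c70, Cyp2d26, Cyp3a11, Cyp8b1 and Sult1a1, which include each Cyp2c gene with a window. The HNF4 letters were found for 7 of the 17 members with a window whose non-LRC libraries of JV624 and JV6314 were both above the other 6 libraries, and for 2 of the 9 other members with a window. That grouping of libraries was chosen after the values were seen. The matches include neighbouring Cyp2c genes, of which Cyp2c37 and Cyp2c50 were 96.1% identical in their coding frames, so they are not independent. A link between the letters and the levels was not tested. A match describes letters and not a bound site. Bases just after the RefSeq start were found in GENCODE transcripts of 23 of the 26 genes, but not for Cyp27a1, Ugt2b5 and Cyp2c68, and the windows of Cyp2c29 and Cyp2d9 and 1 window of Cyp4f14 lay with all 250 bases inside the GENCODE gene, so that Cyp2c68 and Cyp2c29 are among the matches with such a start. Listed 5′ to 3′, with the matches in capitals, are the windows of 3 genes with a log2 fold below -2 and a match, of Sult1a1, with a log2 fold of -0.11 and a match, and of Cyp3a13, with one of 0.77 and no match; none of the 5 genes passed the adjusted threshold in edgeR. They are Cyp2c37 (chr19:39992174-39992423, plus strand), Cyp2c50 (chr19:40089429-40089678, plus), Cyp8b1 (chr9:121916306-121916555, minus), Sult1a1 (chr7:126676419-126676668, minus) and Cyp3a13 (chr5:137921620-137921869, minus).
Cyp2c37: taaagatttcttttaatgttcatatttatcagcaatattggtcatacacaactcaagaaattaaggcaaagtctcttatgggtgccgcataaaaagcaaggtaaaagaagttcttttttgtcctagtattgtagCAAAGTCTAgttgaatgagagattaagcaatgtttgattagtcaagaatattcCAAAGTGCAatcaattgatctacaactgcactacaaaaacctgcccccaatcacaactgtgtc
Cyp2c50: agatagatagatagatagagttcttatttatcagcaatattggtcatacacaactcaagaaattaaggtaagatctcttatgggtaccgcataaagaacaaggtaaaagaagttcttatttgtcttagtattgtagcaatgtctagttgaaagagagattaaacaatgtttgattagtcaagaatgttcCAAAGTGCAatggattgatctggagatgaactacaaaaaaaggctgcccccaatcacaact
Cyp8b1: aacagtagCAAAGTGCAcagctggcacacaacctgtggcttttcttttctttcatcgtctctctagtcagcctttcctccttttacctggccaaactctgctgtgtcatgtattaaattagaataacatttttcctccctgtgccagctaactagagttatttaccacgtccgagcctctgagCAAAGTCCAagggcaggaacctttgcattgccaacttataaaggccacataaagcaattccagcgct
Sult1a1: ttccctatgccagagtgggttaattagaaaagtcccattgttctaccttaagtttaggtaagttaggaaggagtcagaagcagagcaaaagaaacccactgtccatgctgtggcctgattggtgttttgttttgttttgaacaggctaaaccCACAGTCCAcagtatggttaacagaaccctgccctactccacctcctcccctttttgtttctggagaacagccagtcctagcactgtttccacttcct
Cyp3a13: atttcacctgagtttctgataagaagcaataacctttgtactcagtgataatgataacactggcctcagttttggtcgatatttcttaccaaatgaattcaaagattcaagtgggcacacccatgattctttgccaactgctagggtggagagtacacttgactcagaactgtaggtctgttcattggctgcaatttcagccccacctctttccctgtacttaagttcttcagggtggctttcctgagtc

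Fmo5, a flavin monooxygenase of the liver that oxidises ketones and drugs, was the 1 member whose 4 LLRC libraries all lay below all 4 non-LRC libraries (background 1.91% of genes tested). It lies on chromosome 3, 97628804 to 97655282 of GRCm38, plus strand. It was at 28.7, 19.2, 24.9 and 27.0 CPM in LLRCs, compared with 42.2, 148.7, 146.3 and 60.8 CPM in non-LRC cells. The LLRC values ran from 19.2 to 28.7 CPM, and the non-LRC values of JV621 and JV624 stood above those of JV602 and JV6314. The means were 24.9 ± 4.15 CPM (SD, n = 4) and 99.5 ± 56.0 CPM (SD, n = 4), a log2 fold of -1.996 (standard error 0.45, adjusted p = 0.242 by the quasi-likelihood test of edgeR). An exact two-sided permutation test gave p = 0.0286, the smallest that 4 against 4 libraries allow. Groups that do not overlap always give this p, so it only restates that order. The adjusted p was 0.00605 with DESeq2, 0.0129 with edgeR's exact test and 0.0491 with DESeq2 and the mouse as a block. With 1 library left out in turn its log2 fold stayed between -2.26 and -1.72, and without the non-LRC libraries of JV624 and JV6314 it was -1.94 (adjusted p = 0.371 from edgeR, 4 against 2 libraries).

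Cyp4v3, a fatty acid omega-hydroxylase and the mouse counterpart of human CYP4V2, showed the opposite order, with all 4 LLRC libraries above all 4 non-LRC libraries (background 2.15%). It lies on chromosome 8, 45304944 to 45333216 of GRCm38, minus strand. Its levels were 89.2, 110.3, 103.2 and 91.7 CPM in LLRCs, compared with 76.4, 76.0, 60.3 and 46.4 CPM in non-LRC cells. The gap between the groups was narrow, from 76.4 to 89.2 CPM. The means were 98.6 ± 9.93 and 64.8 ± 14.4 CPM (SD, n = 4 each), a log2 fold of 0.61 (standard error 0.26, adjusted p = 0.951 by the quasi-likelihood test of edgeR, exact permutation p = 0.0286, which again only restates the order of the groups). An overlapping gene on the same strand, Gm45753, shares 8.22% of its exon bases.

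**Figure D3:**
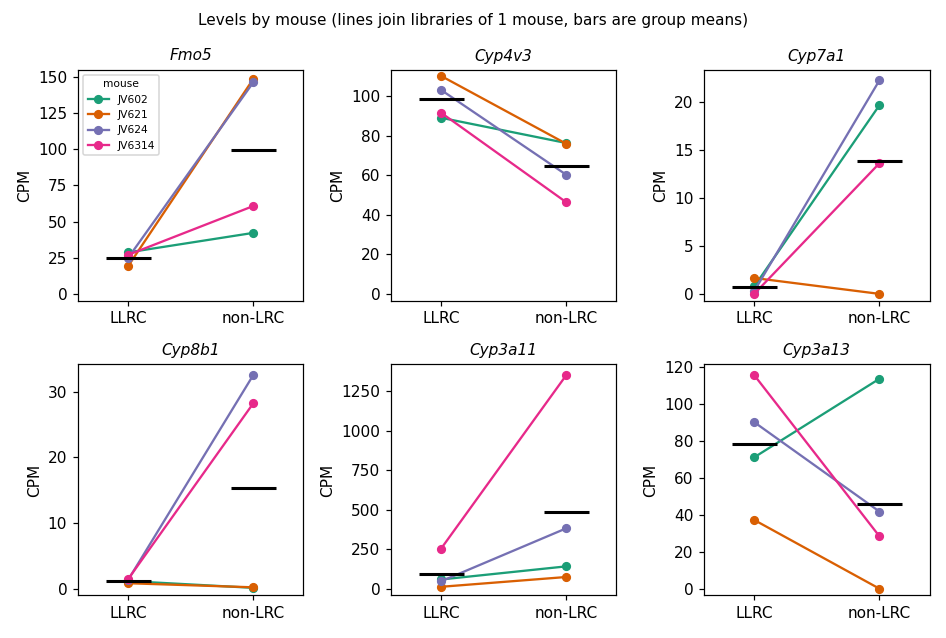
CPM of 6 members in LLRC and non-LRC cells, with lines joining the 2 libraries of each mouse and bars at the group means. Fmo5 is higher and Cyp4v3 lower in the non-LRC library of each mouse, Cyp8b1 is high in 2 non-LRC libraries, and Cyp3a13 is at 0 in the non-LRC library of JV621.

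None of the 4 bile acid P450s passed the adjusted threshold, and each was higher in the LLRC than in the non-LRC library of JV621. Cyp7a1, the rate-limiting enzyme of the classical route (chromosome 4, 6265612 to 6275633, minus strand), was represented by 8, 14, 2 and 0 counts among LLRCs, compared with 157, 0, 141 and 69 counts among non-LRC cells. In CPM these were 0.776, 1.66, 0.294 and 0 against 19.7, 0, 22.3 and 13.6, so that 3 non-LRC libraries lay above all LLRC libraries, while that of JV621 was at 0, as was the LLRC library of JV6314. The log2 fold was -4.31 (standard error 1.47, adjusted p = 0.728 from edgeR), the most negative among the members, and it was -4.69 with the mouse as a block. Cyp8b1, the sterol 12α-hydroxylase needed for cholic acid (chromosome 9, 121914356 to 121916305, minus strand), was at 1.16, 0.828, 1.32 and 1.44 CPM in LLRCs, compared with 0.13, 0.209, 32.5 and 28.2 CPM in non-LRC cells. Its non-LRC libraries of JV602 and JV621 held 1 count each and lay below all LLRC libraries, while those of JV624 and JV6314 lay far above them (log2 fold -3.66, standard error 1.46, adjusted p = 0.893 from edgeR). With the mouse as a block its log2 fold was -1.54.

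Cyp7b1, the oxysterol 7α-hydroxylase of the alternative route, was at 9.40, 12.9, 15.9 and 8.66 CPM in LLRCs, compared with 16.8, 0, 129.6 and 17.4 CPM in non-LRC cells. Its log2 fold of -1.81 (standard error 1.25) became 0.04 without the non-LRC library of JV624. Cyp27a1, the mitochondrial sterol 27-hydroxylase that opens that route, was at 1.74, 1.42, 0.735 and 0.444 CPM in LLRCs, compared with 0.501, 0, 14.5 and 6.91 CPM in non-LRC cells (log2 fold -2.31, standard error 1.30). The 4 bile acid P450s summed to 10.5 to 18.2 CPM in LLRCs, compared with 37.1, 0.209, 198.9 and 66.1 CPM in non-LRC cells. Cyp2c70, which makes the muricholic acids of mice, was at 4.46, 19.8, 35.0 and 13.99 CPM in LLRCs, compared with 8.27, 76.6, 198.1 and 56.2 CPM in non-LRC cells. It was lower in LLRCs in each mouse, though the groups overlapped (log2 fold -2.21, standard error 0.89, adjusted p = 0.893 from edgeR and 0.00264 from DESeq2 with the mouse as a block).

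The other Cyp2c genes encode hydroxylases and epoxygenases of arachidonic acid and drugs and lie side by side on chromosome 19. Cyp2c50 (40089688 to 40113950, plus strand) was at 4.27, 0.237, 6.18 and 6.55 CPM in LLRCs, compared with 16.2, 1.88, 88.4 and 17.6 CPM in non-LRC cells. Its LLRC library was the lower in each mouse, but the non-LRC library of JV621 lay below 3 LLRC libraries (log2 fold -2.85, standard error 1.15, adjusted p = 0.893 from edgeR and 0.00776 from DESeq2 with the mouse as a block). Cyp2c29, Cyp2c37, Cyp2c54 and Cyp2c68 had log2 folds of -1.60, -2.19, -2.19 and -2.57, with standard errors of 0.93 to 1.47. Cyp2c68 was higher in LLRCs in 2 mice and lower in 2, and its fold was -0.54 with the mouse as a block. With 1 library left out in turn, the fold of Cyp2c29 ran from -2.42 to -0.81, that of Cyp2c37 from -4.20 to -1.39 and that of Cyp2c54 from -3.19 to -1.28. Reads of this cluster can be split between near copies, since the coding frames of Cyp2c37, Cyp2c50 and Cyp2c54 were 95.1% to 96.1% identical and 43.3% of the 50-base windows of Cyp2c68 occurred in another gene. The 6 Cyp2c genes summed to 21.2, 23.5, 61.3 and 46.4 CPM in LLRCs, compared with 40.8, 84.4, 433.8 and 160.6 CPM in non-LRC cells, higher in the non-LRC library of each mouse.

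Among the remaining family 2 genes, Cyp2f2, which activates naphthalene and is known around the portal vein of the liver lobule, was at 19.0, 11.4, 23.7 and 24.1 CPM in LLRCs, compared with 11.3, 27.98, 237.2 and 105.8 CPM in non-LRC cells. The non-LRC library of JV602 lay below all LLRC libraries and the other 3 above them (log2 fold -2.29, standard error 0.83, adjusted p = 0.79 from edgeR). An antisense gene, Gm15883, overlaps 13.5% of its exon bases, and the counts did not use strand. Cyp2j5, an arachidonic acid epoxygenase, was at 136.4, 135.9, 168.5 and 240.1 CPM in LLRCs, compared with 169.9, 528.1, 176.6 and 166.5 CPM in non-LRC cells. The non-LRC library of JV621 stood above the other 7 libraries, which overlapped between the groups, and without it the log2 fold of -0.61 (standard error 0.44) became 0.00.

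The Cyp2d genes encode hydroxylases of steroids and basic drugs. Cyp2d22, often compared with human CYP2D6, was at 91.4, 74.6, 47.5 and 91.9 CPM in LLRCs, compared with 60.4, 133.0, 78.8 and 69.3 CPM in non-LRC cells. The groups overlapped throughout (log2 fold -0.16, standard error 0.35, adjusted p = 0.9999 from edgeR). Cyp2d9, Cyp2d10 and Cyp2d26, also on chromosome 15, instead had log2 folds of -2.18, -0.94 and -2.20 with standard errors of 0.95, 0.52 and 0.99, and all 3 were highest in the non-LRC libraries of JV624 and JV6314. With the mouse as a block these folds were -1.56, -0.68 and -1.35. With 1 library left out in turn they ran from -2.66 to -1.52, from -1.18 to -0.47 and from -2.59 to -1.73. The coding frames of Cyp2d9 and Cyp2d10 were 92.5% identical, so their counts are uncertain.

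The 3 Cyp3a genes lie on chromosome 5, and their coding frames were 76.0% to 76.5% identical. None passed the adjusted threshold in edgeR, and differences between the genes were not tested. Cyp3a11, the main drug-oxidising Cyp3a enzyme of mouse liver (145854426 to 145879964, minus strand), was at 58.2, 11.9, 46.8 and 253.8 CPM in LLRCs, compared with 141.1, 73.9, 381.8 and 1351 CPM in non-LRC cells. It was lower in the LLRC library of each mouse, while both libraries of JV6314 were high and the groups overlapped (log2 fold -2.39, standard error 1.09). The fold was -3.63 without the LLRC library of JV6314 and -1.10 without the non-LRC library of that mouse. The adjusted p was 0.967 with edgeR's quasi-likelihood test, 0.252 with the mouse as a block in that test, and 2.03e-05 with DESeq2 and the same block. Within mice, the log2 differences of Cyp3a11 from JV602 to JV6314 were -1.27, -2.58, -3.02 and -2.41.

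Cyp3a13, a Cyp3a enzyme also known from the intestine, was at 71.2, 37.3, 90.3 and 115.8 CPM in LLRCs, compared with 113.8, 0, 41.8 and 28.4 CPM in non-LRC cells. The LLRC library was higher in 3 mice and lower in JV602 (log2 fold 0.77, standard error 1.12, adjusted p = 0.9999 from edgeR). In the non-LRC library of JV621 it had 0 counts, against 315 counts in the LLRC library of that mouse. Its fold was 0.36 without that library. Cyp3a25 had a log2 fold of -1.55 (standard error 1.16), or -0.73 without the non-LRC library of JV6314 and -0.48 with the mouse as a block, with 1 count in the non-LRC library of JV621 and 70.4 and 116.6 CPM in the non-LRC libraries of JV624 and JV6314.

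Of the family 4 genes, which hydroxylate the ends of fatty acids, Cyp4f14, known to act on leukotriene B4, was at 94.9, 78.7, 82.1 and 50.2 CPM in LLRCs, compared with 104.2, 21.9, 54.3 and 25.3 CPM in non-LRC cells. It was higher in LLRCs in 3 mice, with overlapping groups (log2 fold 0.57, standard error 0.51, or 0.33 to 1.17 with 1 library left out in turn). Cyp4a10 and Cyp4a14, well-known targets of the fatty acid receptor PPARα, were low. Cyp4a10 ranged from 0.0969 to 26.2 CPM in LLRCs, compared with 0 to 63.3 CPM in non-LRC cells, with the highest value of each group in JV624. Cyp4a14, which was not tested, had 8, 13, 1 and 0 counts in LLRCs and 4, 0, 48 and 60 counts in non-LRC cells.

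The UDP-glucuronosyltransferases of the Ugt2b family, which glucuronidate steroids, bile acids and drugs, also differed in how they were spread over the libraries. Ugt2b34 was at 123.8, 215.0, 337.8 and 96.0 CPM in LLRCs, compared with 237.2, 119.0, 159.4 and 118.0 CPM in non-LRC cells. It was higher in LLRCs in 2 mice and lower in 2 (log2 fold 0.29, standard error 0.43). Ugt2b1, Ugt2b5 and Ugt2b36 had log2 folds of -1.93, -1.25 and -1.44 with standard errors of 1.39, 1.2 and 0.997. With the mouse as a block these folds were 0.09, -0.07 and -0.53, and without the non-LRC library of JV624 they were -0.39, -0.44 and -0.58. In the non-LRC libraries of JV624 and JV6314 they were at 52.3 to 182.0 CPM, and in that of JV621 at 0, 0.418 and 1.88 CPM. Of the windows of Ugt2b5, 41.7% occurred in other genes, mainly Ugt2b38.

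The sulfotransferase and glutathione transferases were read in all libraries. Sult1a1, which sulfates phenols, was at 232.1, 206.4, 133.2 and 152.4 CPM in LLRCs, compared with 219.8, 189.0, 186.7 and 187.8 CPM in non-LRC cells. Its log2 fold was -0.11 (standard error 0.25), with the non-LRC values within the range of the LLRC values. Gsta3, which detoxifies epoxides such as that of aflatoxin, was at 363.6, 196.7, 271.8 and 343.6 CPM in LLRCs, compared with 374.7, 237.8, 563.7 and 403.7 CPM in non-LRC cells. It was lower in LLRCs in each mouse, by little in JV602, and the groups overlapped (log2 fold -0.43, standard error 0.33, or -0.60 to -0.21 with 1 library left out in turn). Gstp1, the pi-class enzyme of duct cells and other epithelia, was at 127.0, 134.7, 115.9 and 129.7 CPM in LLRCs, compared with 125.6, 71.4, 466.1 and 286.7 CPM in non-LRC cells. Its non-LRC values lay on both sides of its LLRC values (log2 fold -0.90, standard error 0.52), and 33.7% of its windows also occurred in Gstp2 and a pseudogene.

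Neither carboxylesterase passed the adjusted threshold in edgeR. Ces1c, which is secreted into mouse plasma, was at 167.9, 174.9, 219.1 and 134.8 CPM in LLRCs, compared with 129.5, 175.2, 101.8 and 111.5 CPM in non-LRC cells. It was higher in LLRCs in 3 mice and level in JV621 (log2 fold 0.43, standard error 0.27, exact permutation p = 0.143). Ces3a, a lipid-hydrolysing esterase of hepatocytes, was at 4.12 to 13.1 CPM in LLRCs, compared with 24.5, 0, 88.9 and 43.2 CPM in non-LRC cells (log2 fold -2.35, standard error 1.19), with 25.6% of its windows shared with Ces3b. The fold of Ces3a was -1.40 with the mouse as a block in edgeR and -2.75 to -1.56 with 1 library left out in turn.

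Per kilobase of exon, 4 of the 5 highest genes were the same in both groups. In LLRCs Sult1a1 came first at 120.1 ± 30.5 CPM per kb, followed by Gstp1 at 81.9 ± 5.14, Ces1c at 75.0 ± 14.9, Cyp2j5 at 72.6 ± 20.9 and Gsta3 at 67.7 ± 17.5 CPM per kb (SD, n = 4 each). These neighbours overlapped in their ranges over libraries, except that all Sult1a1 values exceeded all Gstp1 values, at no less than 88.4 against no more than 87.0 CPM per kb. In non-LRC cells Gstp1 (153.4 ± 114.8 CPM per kb), Sult1a1 (130.0 ± 10.6), Cyp2j5 (111.0 ± 76.2), Cyp3a11 (95.6 ± 116.0) and Gsta3 (90.9 ± 30.8) led, and their ranges overlapped. Cyp3a11 was thus at rank 4 in non-LRC cells and at rank 11 in LLRCs with 18.2 ± 21.4 CPM per kb. Cyp7a1 was last in LLRCs, at 0.163 ± 0.173 CPM per kb.

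The 33 genes together took 0.201%, 0.149%, 0.169% and 0.178% of all counts in the LLRC libraries, against 0.198%, 0.154%, 0.51% and 0.406% in non-LRC cells. In JV602 and JV621 the libraries of a mouse were thus close to each other, and in JV624 and JV6314 the non-LRC library was the higher. The 10 members with the highest mean CPM held 77.9% to 87.7% of the members' counts in LLRC libraries, and 82.0%, 85.4%, 53.4% and 73.8% in the non-LRC libraries. The leading member was Gsta3 or Ugt2b34 in LLRC libraries and Gsta3 in the non-LRC libraries of JV602 and JV624, but Cyp2j5 with 27.7% in the non-LRC library of JV621 and Cyp3a11 with 36.1% in that of JV6314.

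Of the 32 members tested, 20 (62.5%) had their highest CPM in the non-LRC library of JV624, where 17.4% of all genes tested had theirs. For 20 members the non-LRC libraries of JV624 and JV6314 were both above the other 6 libraries, as for 10.02% of all genes tested. That grouping of libraries was chosen after the values were seen and is given as a description. In the non-LRC library of JV621, 8 of the 32 members tested had 0 counts, among them Cyp3a13, Cyp7a1, Cyp7b1 and Ugt2b1, where 15.6% of the genes tested had 0 counts. The same library held the highest levels of Fmo5, Cyp2j5 and Cyp2d22.

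Leaving out the non-LRC library of JV624 moved the median log2 fold of the members from -1.70 to -0.79. Leaving out the non-LRC libraries of JV624 and JV6314 together, which was added after the data were seen, turned it to 0.21, with 14 members below 0 and 18 above (4 against 2 libraries, all-gene median 0.12). Under that setting Cyp3a11 was at -0.21, Cyp2f2 at -0.01 and Cyp8b1 at 2.76, whereas Cyp7a1 was at -3.82 and Fmo5 at -1.94. With the mouse as a block in edgeR, the median over the members was -0.55 and over all genes 0.14. Of the 32 members, 13 changed sign when those non-LRC libraries were left out, among them Cyp2c54, Cyp2c68, Cyp8b1, Cyp27a1, Ugt2b1, Ugt2b5, Ugt2b36 and Gstp1.

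**Figure D4:**
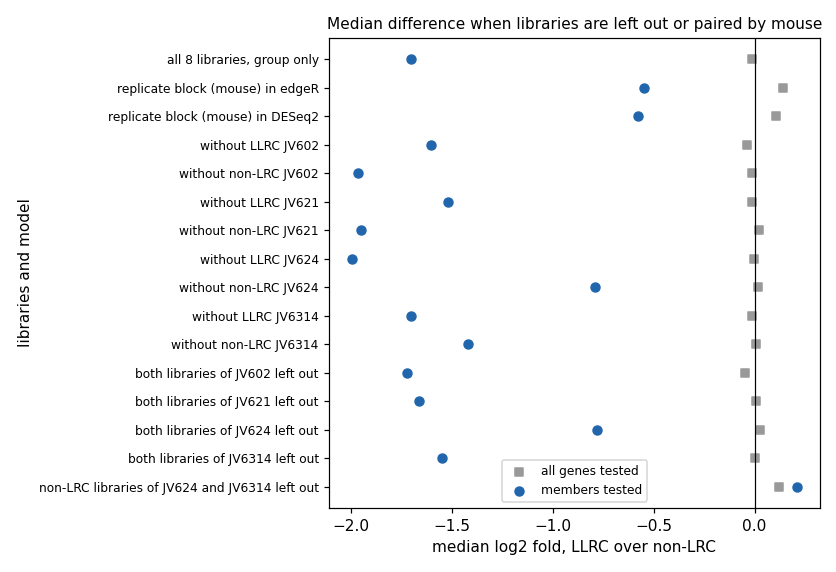
Median log2 fold, LLRC over non-LRC, of the members tested (circles) and of all genes tested (squares) with all 8 libraries, with the mouse as a block, and with libraries left out. The circles lie left of 0, from -1.998 to -0.55, in every row but the last, where the non-LRC libraries of JV624 and JV6314 are left out and the median is 0.21.

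Sums of marker genes also differed between libraries. The 25 hepatocyte markers, all of them read in some library and only Hamp at 0 in 1 of them, summed to 8747 to 10089 CPM in LLRCs, compared with 8954, 8692, 15659 and 11499 CPM in non-LRC cells. Of the 25, 20 had a log2 fold below 0 (background 51.1% of all genes tested). In edgeR 13 were lower at an unadjusted p below 0.05 (background 3.56%) and 0 at an adjusted p below 0.05. The 5 markers of hepatocytes around the central vein summed to 44.0 to 103.7 CPM in LLRCs, compared with 118.4 to 928.4 CPM in non-LRC cells, again highest in JV624 and JV6314. Without Oat, also left out after the values were seen, the groups overlapped, at 31.3 to 57.6 CPM in LLRCs, compared with 72.6, 53.5, 534.0 and 247.8 CPM in non-LRC cells. The 5 markers around the portal vein summed to 106.8 to 156.3 and 171.6 to 355.8 CPM. The portal sum was highest in the non-LRC library of JV621, where Ctsc alone was at 318.0 CPM, and without Ctsc, left out after the values were seen, it was 38.8 to 60.2 CPM in LLRCs, compared with 36.4, 37.8, 187.5 and 164.8 CPM in non-LRC cells, so that it too was highest in JV624 and JV6314. The 20 endothelial markers summed to 44.2 to 103.1 CPM in LLRCs, compared with 350.9 to 1634 CPM in non-LRC cells, highest in JV621, and DESeq2 called 16 of them lower (background 1.17%) where edgeR called 0. DESeq2 also called the hepatocyte markers Apoc3, Hpd, Tdo2 and Glul and the cholangiocyte marker Aqp1 lower, and edgeR called 0 of them. Aqp1 was not typical of the 20 cholangiocyte markers, of which 18 had a log2 fold above 0 and 2 below, with a median of 0.24. The 20 cholangiocyte markers, led by Spp1, summed to 118143 to 224677 and 68562 to 166872 CPM, lowest in the non-LRC library of JV624. Without Spp1, left out after the values were seen, they summed to 6033 to 7162 CPM in LLRCs. The non-LRC sums were then 6081, 7725, 4313 and 5139 CPM, highest in JV621 and still lowest in JV624. The 13 stellate and fibroblast markers summed to 2474 to 9950 and 3520 to 9212 CPM, mostly from Rgs5 at 2196 to 9242 CPM, and without Rgs5 to 277.4 to 908.9 and 704.2, 754.5, 2929 and 2451 CPM. Of the 8 of them tested, 6 had a log2 fold below 0 and the median was -2.15, with Lrat at -2.98 (adjusted p = 0.104 from edgeR and 1.8e-06 from DESeq2, all LLRC below all non-LRC libraries) and Dcn at -1.90 (lower in LLRCs in 4 mice). These 2 genes were named after their values were seen. The sums were 38.4 to 73.1 and 45.1 to 107.5 CPM for the 13 leukocyte and Kupffer cell markers, with Cd3e at 0 throughout. Pancreatic acinar markers reached 824.4 CPM in the non-LRC library of JV6314, against 22.7 CPM or less elsewhere, and erythroid markers 111.2 and 456.8 CPM in the libraries of JV624, against 16.0 CPM or less. The part of these cells in the members' differences was not tested.

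The other genes of the same pathways, from lists of related enzymes, gave 0 calls at an adjusted p below 0.05 in the edgeR test, and DESeq2 called 3 lower (background 1.17%), the P450s Cyp1a1, Cyp2e1 and Cyp4b1, and 0 higher. Of 55 other family 1 to 4 P450s, 27 were tested, and 23 had a log2 fold below 0, with 6 lower and 0 higher at an unadjusted p below 0.05, where 51.1% of all genes tested were below 0 and 3.56% were lower at that p. These shares are also the background of the next lists. Cyp4b1, a P450 of lung and other epithelia, had the smallest p among them, at 7.19 ± 4.64 CPM in LLRCs, compared with 73.2 ± 43.8 CPM in non-LRC cells (SD, n = 4 each, log2 fold -3.34, adjusted p = 0.152 from edgeR). Cyp2j6 and Cyp2e1, the 2 with the highest mean levels, were at 239.3 ± 18.1 and 23.7 ± 10.8 CPM in LLRCs, compared with 172.5 ± 101.6 and 152.5 ± 133.6 CPM in non-LRC cells. Of 73 other conjugation and ester enzymes, 47 were tested, with 37 below 0 and 5 lower at that unadjusted p. The highest of these, Mgst1 and Ces1d, had log2 folds of -0.04 and 0.33, and Gnmt, a glycine methyltransferase with the smallest p, of -2.36 (adjusted p = 0.665 from edgeR).

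Of 14 other genes of bile acid synthesis and conjugation, 13 were tested, with 11 below 0 and 2 lower at an unadjusted p below 0.05. Scp2 and Akr1c6, the 2 with the highest levels, had log2 folds of -1.08 and -2.15, and the fatty acid transporter and ligase Slc27a2 of -1.90 (adjusted p = 0.575 from edgeR). The 10 redox partners and heme supply genes, all tested, showed no member at that unadjusted p, with Pgrmc1 at 0.06, Cyb5a at -0.44 and Ephx2 at -1.07. Of 23 nuclear receptors and factors known to act on P450 genes, 20 were tested and 14 were below 0. Nfe2l2 had a log2 fold of -0.01, and Foxa1, a pioneer factor of liver genes, was at 66.1 ± 37.5 CPM in LLRCs, compared with 19.6 ± 10.9 CPM in non-LRC cells (SD, n = 4 each, log2 fold 1.75, adjusted p = 0.778 from edgeR).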

How the data were processed

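RNA of 4 LLRC and 4 non-LRC libraries was analysed. The authors aligned the reads to mm10 with an aligner not given in the sources used here, and counted them on Ensembl exons of GRCm38.p4 by HTSeq (0.5.3p9, union mode, strand ignored). They deposited raw counts for each gene, not normalized. Their edgeR 3.2.4 table of comparisons (log2 folds, p-values and adjusted p-values) was not used.

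From the deposited counts, 13605 genes passed edgeR's filterByExpr and were tested over all 8 libraries with TMM scaling and edgeR's quasi-likelihood test (edgeR 4.0.16 under R 4.3.3). The model held only the group, with Benjamini-Hochberg adjustment over all genes tested and a threshold of 0.05. The standard error is the size of the log2 fold divided by the root of the F value. Single genes were also tested by an exact two-sided permutation of log2(CPM + 1) over 70 splits. Within-mouse log2 differences used log2(CPM + 0.5). DESeq2 1.42.0 and limma 3.58.1 served as alternatives. Floors cover counting error only. Labels name the mouse of each library, so the numbers pair libraries of the same animal, and deviations of a mouse's libraries from the group means correlated at 0.0898, 0.0985, 0.00397 and 0.188.

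Symbols, coordinates and exon lengths came from GENCODE M21 (GRCm38). Symbols were found for 46005 rows, and 598 had none. The shared windows are 50-base stretches of transcripts found in another gene. The test scripts were tested on simulated data. The members and lists were chosen with earlier results of these data known. Every member is named, and values in every library are given for the 10 with the highest mean CPM, the 6 with the smallest unadjusted p, the 4 bile acid P450s and those with a positive log2 fold. In the related lists, the 2 genes with the highest mean CPM and the 1 with the smallest unadjusted p are named, except that 1 gene and a motif are not reported here. Of the lists, 2 genes had no row.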

Additional observations from a re-analysis of the deposited data

Results flagged for a closer look

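Among 66 groups of 4 values, 2 for each of the 33 genes, 4 held a library whose distance to its nearest neighbour as a share of the group's range was above Dixon's critical value for 4 values. For normally distributed values chance gives about 1 such group in 20, so 4 of 66 groups is near that share. CPM values are skewed and some are 0, so the share is approximate. Cyp2j5 in the non-LRC library of JV621 stood at 528.1 CPM (2529 counts), above 166.5 to 176.6 CPM in the other non-LRC libraries. Cyp7b1 in the non-LRC library of JV624 stood at 129.6 CPM (821 counts), above 0 to 17.4 CPM. Cyp2c37 in the LLRC library of JV624 stood at 4.12 CPM (28 counts), above 0 to 0.666 CPM, and its reads can be shared with Cyp2c50 and Cyp2c54. Sult1a1 in the non-LRC library of JV602 stood at 219.8 CPM (1755 counts), above 186.7 to 189.0 CPM, a group whose other values lay close together.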

How the results depend on the processing

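Over 22 alternatives and 1 added after the data were seen, 15 of the 32 members kept their sign in every setting. The number of all genes with an adjusted p below 0.05, 0 with all libraries, was 11 with no filter, 265 with DESeq2, 154 with edgeR's exact test and 332 with the replicate block in DESeq2, and 0 to 6 with 1 library left out, while the replicate block in edgeR gave 0. Members called lower numbered 1 with DESeq2, 1 with the exact test and 4 with the replicate block in DESeq2, and 0 in the other settings. The count of members lower at an unadjusted p below 0.05 ranged from 2 to 20 with 1 library left out, and was 4, 15, 2 and 3 without JV602, JV621, JV624 or JV6314 and 1 without the non-LRC libraries of JV624 and JV6314. The count higher, 1 with all libraries, was 0 to 2 with 1 library left out, 3 without those 2 non-LRC libraries, and 0 with DESeq2 size factors, library totals, no filter, the exact test, either replicate block or any 1 mouse left out. The median log2 fold of the members was -0.55 and -0.58 with the replicate block in edgeR and DESeq2, and 0.21 without those 2 non-LRC libraries. Log2 folds changed sign for Cyp2d22 (0.0281 with limma, 0.155 without JV621 and -0.302 to 0.148 with 1 library left out), Cyp2j5 (0.0937 without JV621, -0.814 to 0.0033 with 1 library out), Cyp4a10 (-2.51 to 0.97), Cyp7b1 (-2.21 to 0.036), Sult1a1 (-0.249 to 0.0174), Ugt2b34 (-0.12 to 0.539, and -0.124 without JV624) and Ugt2b1 (0.0898 and 0.257 with the replicate block in edgeR and DESeq2). The library that turned the sign was the non-LRC library of JV621 for Cyp2d22 and Cyp2j5, that of JV624 for Cyp4a10 and Cyp7b1, and the LLRC library of JV624 for Cyp2d22, Ugt2b34 and Sult1a1. Without the non-LRC libraries of JV624 and JV6314 they did so for Cyp2c54 (1.79), Cyp2c68 (2.99), Cyp2d10 (0.23), Cyp2d26 (0.28), Cyp3a25 (1.10), Cyp4a10 (4.64), Cyp7b1 (0.47), Cyp8b1 (2.76), Cyp27a1 (1.94), Ugt2b1 (3.06), Ugt2b5 (2.27), Ugt2b36 (0.98) and Gstp1 (0.37). The cause of these changes was not tested. The replicate block changed no other call at an adjusted p below 0.05. At an unadjusted p it left 5 members lower in edgeR and 10 in DESeq2. With 4 libraries a group and totals of 4670132 to 9851819 counts, members at a few counts, such as Cyp7a1 in LLRCs, cannot be resolved further.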
